A study of Saccharomyces cerevisiae with 12 samples.

Results

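The genes described here are 9 genes of arginine synthesis and breakdown in the budding yeast Saccharomyces cerevisiae, taken by symbol from a table of 7126 genes: ARG1, ARG2, ARG3, ARG4, ARG7, ARG8 and CPA1, which make arginine, and CAR1 and CAR2, which break it down. Their transcripts were measured by RNA-seq in 12 libraries, 2 from each of 6 genotypes, all in the CEN.PK strain background. The genotypes were cho2set2, opi1set2, cho2, opi1, set2 and WT, named for the genes deleted. Cells were grown in YPL, a rich lactate medium, washed, and held for 1 h in SL, a minimal lactate medium, before RNA was taken. Every group, WT included, had been through that change of medium, so no value here is from cells before it. Set2 is the enzyme that methylates lysine 36 of histone H3 along transcribed genes. Cho2 carries out the opening methylation by which phosphatidylethanolamine becomes phosphatidylcholine, and Opi1 represses genes of phospholipid synthesis. Whether the paired libraries of each genotype stem from distinct cultures or transformants is not in the labels, and p-values here reflect only how far such libraries lie apart.

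Yeast makes arginine from glutamate. Acetylated intermediates lead to ornithine in the mitochondrion, ornithine takes up carbamoyl phosphate to give citrulline, and citrulline becomes arginine by way of argininosuccinate. Transcription of most of these genes is raised by Gcn4, the activator that is translated when amino acids run short, and several are repressed in the presence of arginine by the ArgR/Mcm1 complex (Arg80, Arg81, Arg82 and Mcm1). The same complex takes part in inducing CAR1 and CAR2 when arginine is plentiful, and Ume6 represses CAR1.

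Levels are given as FPKM, counts scaled to the gene's length and to the library's total, as the authors deposited them. Changes are log2 changes ± SE from edgeR's quasi-likelihood test on the deposited counts, fitted over all 12 libraries with TMM scaling, with 2 libraries in each group. Adjusted p is Benjamini-Hochberg over every gene in the test, and a gene is said to have risen or fallen where the adjusted p was below 0.05. All 9 genes passed the filter on low values. These are levels in whole cultures, scaled to each library's total, so a change in every cell and a larger one in part of the cells cannot be told apart.

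Library totals ran from 7383001 to 9461609 counts. The deleted genes were at or near 0 in the strains that lack them, with 1 exception. SET2 had 0 counts in both set2 and both opi1set2 libraries, a count that allows up to 3 at this depth (counting error only), and 149 to 239 counts in the 6 libraries with the gene. Of the libraries labelled cho2set2, replicate 1 had 50 SET2 counts and replicate 2 had none (0). CHO2 had 2 to 13 counts in the libraries labelled cho2 or cho2set2, against 2551 to 5010 in the others, and OPI1 had 0 to 1 in those labelled opi1 or opi1set2, against 589 to 1227 in the others. For cho2set2, calls that change without its replicate 1 are given beside the result. The WT libraries stood apart from each other at these genes: ARG1 was at 118 and 41.3 FPKM and ARG3 at 61.2 and 26.7 FPKM in WT replicates 1 and 2.

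The genes lie on 6 chromosomes, and the deposited gene size of each equals its span, so each was counted as a single exon. On build sacCer3 (R64), ARG2 (YJL071W) is at chrX:306132-307856 on the plus strand, ARG7 (YMR062C) at chrXIII:395054-396379 on the minus strand, ARG8 (YOL140W) at chrXV:58759-60030 on the plus strand and CPA1 (YOR303W) at chrXV:882899-884134 on the plus strand. ARG3 (YJL088W) is at chrX:268799-269815, plus strand, ARG1 (YOL058W) at chrXV:219211-220473, plus strand, and ARG4 (YHR018C) at chrVIII:140011-141402, minus strand. CAR1 (YPL111W) is at chrXVI:339944-340945 and CAR2 (YLR438W) at chrXII:1012501-1013775, both on the plus strand. CAR2 shares 186 bases with YLR437C-A on the opposite strand. That small gene had 4 to 21 counts in a library, and whether reads were counted by strand is not given in the sources used here.

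The sequence before the start codon was read for all 9 genes, since most of them moved together. It is printed for 4: ARG1 and ARG3, the synthesis genes with the largest changes on loss of SET2 in WT and in opi1 cells, ARG4, which was higher in opi1 cells than in WT cells, and CAR1, which rose on loss of SET2 in every background. Each run covers 200 bases, from 300 to 101 bases before the start codon, 5′ to 3′ on the gene's strand, from the R64 reference of strain S288C, from which CEN.PK may differ. They lie at chrXV:218911-219110 (plus strand) for ARG1, chrX:268499-268698 (plus) for ARG3, chrVIII:141503-141702 (minus) for ARG4 and chrXVI:339644-339843 (plus) for CAR1. Capitals mark matches to the motifs named after the sequences.
ARG1: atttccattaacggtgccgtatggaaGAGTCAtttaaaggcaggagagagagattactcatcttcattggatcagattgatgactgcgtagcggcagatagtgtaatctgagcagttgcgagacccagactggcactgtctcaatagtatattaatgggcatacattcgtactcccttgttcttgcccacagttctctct
ARG3: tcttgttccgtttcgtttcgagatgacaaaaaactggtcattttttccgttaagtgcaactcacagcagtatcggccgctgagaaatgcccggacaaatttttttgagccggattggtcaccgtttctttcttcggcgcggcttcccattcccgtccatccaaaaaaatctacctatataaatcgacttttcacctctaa
ARG4: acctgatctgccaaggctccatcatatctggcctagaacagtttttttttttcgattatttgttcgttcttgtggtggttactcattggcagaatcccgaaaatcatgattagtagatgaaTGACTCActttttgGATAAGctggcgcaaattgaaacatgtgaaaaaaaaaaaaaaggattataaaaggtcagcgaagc
CAR1: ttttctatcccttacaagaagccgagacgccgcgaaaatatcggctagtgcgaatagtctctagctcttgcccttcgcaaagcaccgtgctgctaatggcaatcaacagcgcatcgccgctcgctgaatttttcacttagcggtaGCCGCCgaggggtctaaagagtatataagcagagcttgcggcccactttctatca
Motifs were searched on both strands in the 300 bases before the start codon, and over the promoters of 5979 protein-coding genes for comparison. The core of the Gcn4 site, TGACTC, was present before 7 of the 9 genes and 7.76% of all promoters. It starts 274 bases before the start codon of ARG1 (on the opposite strand, so that it reads GAGTCA in the line above), 179 before ARG4, 152 before ARG7, 180 before ARG8, 295 before CPA1, 90 before ARG2 (opposite strand) and 127 before CAR2. The longer motif TGANTCA, in which N is any base, was found before ARG4, ARG7 and ARG8, 3 of 9, against 6.79% of all promoters. At these genes it read TGACTCA and overlapped the core, while the share over all promoters takes in every base at N. The GATA factor motif GATAAG was found before ARG1, ARG4 and CPA1, 3 of 9, against 14.7%. GGCGGC, the Ume6 motif, was found before CAR1 only, on the opposite strand, 155 bases from the start codon and as GCCGCC in the line above, against 5.2% of all promoters. ARG3 held none of these 4 words in this window. The TGACTC core was added after the promoters had been read, and a match is a description of the sequence, not evidence of binding.

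**Figure D1:**
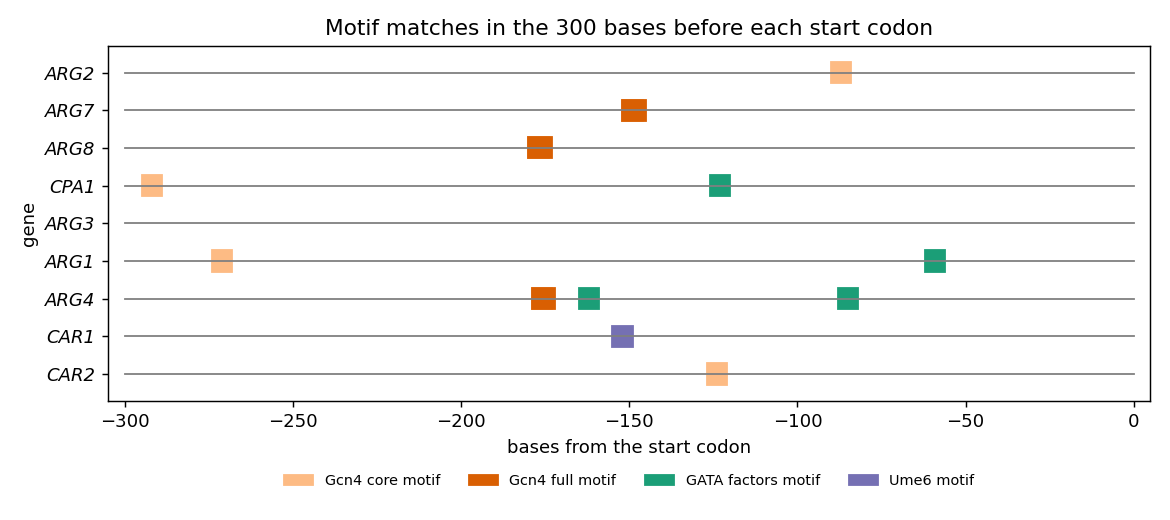
Positions of the 4 motifs in the 300 bases before the start codon of the 9 genes, in bases from the start codon on the horizontal axis and 1 gene per row. The Gcn4 core is present in 7 of the 9 rows, the Ume6 motif in the CAR1 row alone, and the ARG3 row holds none.

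In cells with intact lipid genes, loss of SET2 raised all 7 synthesis genes and CAR1, and CAR2 fell. ARG1, which encodes argininosuccinate synthetase, reached 984 and 851 FPKM in set2 cells, against 118 and 41.3 FPKM in WT cells. The libraries did not overlap, and the change was 3.48 ± 0.32, an 11.1-fold rise (adjusted p = 3.14e-06, edgeR). It ranked 19 from the top of 6580 genes tested, among which 18.5% rose and 15.9% fell. Since the WT libraries differ at ARG1, the change was 4.38 without WT replicate 1 and 2.92 without WT replicate 2.

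The steps on either side of ARG1 followed. ARG3, the ornithine carbamoyltransferase that makes citrulline, was at 310 and 254 FPKM in set2 cells and 61.2 and 26.7 FPKM in WT cells, a change of 2.63 ± 0.26 (adjusted p = 5.15e-06), or 3.31 without WT replicate 1 and 2.17 without WT replicate 2. ARG4, the argininosuccinate lyase that releases arginine, was at 714 and 689 FPKM in set2 cells and 173 and 108 FPKM in WT cells, a change of 2.26 ± 0.19 (adjusted p = 2.04e-06). In both genes every set2 library was above every WT library.

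The genes of the acetylated and carbamoyl phosphate branches rose less on the log2 scale. ARG8, the acetylornithine aminotransferase, was at 92.5 and 87.0 FPKM in set2 cells and 35.6 and 25.1 FPKM in WT cells (1.50 ± 0.17, adjusted p = 2.12e-05). ARG2, the acetylglutamate synthase that opens the pathway, was at 50.9 and 50.1 FPKM in set2 cells and 27.7 and 19.0 FPKM in WT cells (1.05 ± 0.18, adjusted p = 0.000575). For both genes the groups did not overlap. CPA1, the small subunit of the carbamoyl phosphate synthetase of this pathway, was at 392 and 367 FPKM in set2 cells and 204 and 161 FPKM in WT cells (0.99 ± 0.14, adjusted p = 0.000103). ARG7, the ornithine acetyltransferase, was at 237 and 220 FPKM in set2 cells and 143 and 110 FPKM in WT cells (0.79 ± 0.14, adjusted p = 0.000636). The median change of the 7 synthesis genes was 1.50, against -0.01 over all genes tested. Differences in the size of these changes between genes were not tested.

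**Figure D2:**
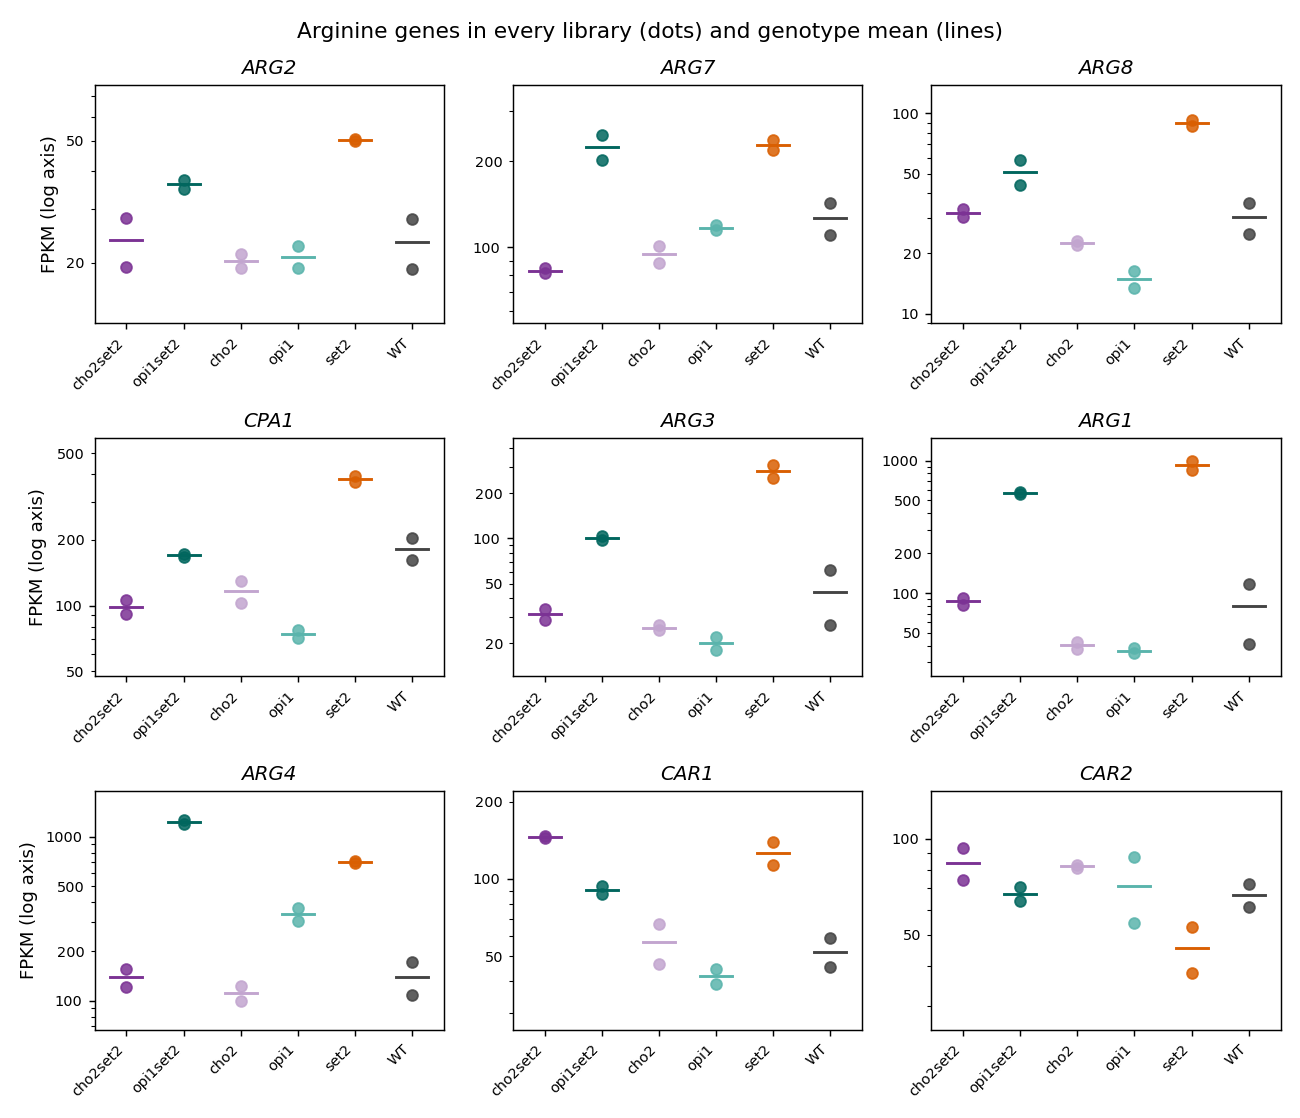
FPKM of the 9 genes in each of the 12 libraries, on a log axis, with 1 panel per gene, the genotypes along the horizontal axis, a point for each library and a bar at the mean. In the 7 synthesis panels the set2 points stand above both WT points, while the cho2set2 points lie closer to the cho2 points than to the set2 points; at ARG1 the 2 WT points lie far apart, at 118 and 41.3 FPKM.

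The same 8 genes rose on loss of SET2 in cells that lack OPI1. All 7 synthesis genes and CAR1 were higher in opi1set2 than in opi1 cells, 8 of the 9 genes, and none was lower, where 23.5% of all genes rose and 20.8% fell. ARG1 was at 575 and 563 FPKM in opi1set2 cells, against 38.4 and 35.2 FPKM in opi1 cells, a 13.5-fold rise (3.75 ± 0.33, adjusted p = 9.33e-07, edgeR). ARG3 was at 104 and 97.9 FPKM in opi1set2 cells and 18.1 and 22.2 FPKM in opi1 cells (2.12 ± 0.27, adjusted p = 2.37e-05). The libraries of the 2 groups lay well apart at both genes.

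ARG4 reached 1261 and 1187 FPKM in opi1set2 cells, its highest level in the study, against 370 and 306 FPKM in opi1 cells (1.66 ± 0.19, adjusted p = 8.53e-06). ARG8 was at 44.0 and 58.5 FPKM in opi1set2 cells and 16.4 and 13.5 FPKM in opi1 cells (1.58 ± 0.19, adjusted p = 1.07e-05). CPA1, at 173 and 168 FPKM in opi1set2 cells and 77.3 and 70.9 FPKM in opi1 cells, changed by 1.00 ± 0.14 (adjusted p = 6.16e-05). In all of these the groups did not overlap. ARG7 (202 and 247 FPKM in opi1set2 cells, 119 and 115 FPKM in opi1 cells) changed by 0.74 ± 0.14, and ARG2 (37.2 and 34.9 FPKM in opi1set2 cells, 22.6 and 19.2 FPKM in opi1 cells) by 0.59 ± 0.19, with adjusted p of 0.000687 and 0.0189. ARG2 lost its call without opi1 replicate 2 (0.51, adjusted p = 0.122) and without opi1set2 replicate 1 (0.54, 0.0547). The median over the synthesis genes was 1.58, against 0.01 over all genes.

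In cells that lack CHO2, 1 of the 7 synthesis genes rose on loss of SET2. It was ARG1, at 80.9 and 91.9 FPKM in cho2set2 cells and 38.1 and 42.7 FPKM in cho2 cells (1.04 ± 0.30, adjusted p = 0.0307, edgeR), and it lost that call when any 1 of the 4 libraries of the comparison was left out, replicate 1 of cho2set2 included, and with DESeq2 and limma. Without replicate 1 of cho2set2 its change was 1.13 (adjusted p = 0.0568). CAR1 was the other gene of the 9 that rose, and none fell; 11.3% of all genes rose and 5.58% fell. The median change of the 7 synthesis genes was 0.23, against 0.00 over all genes.

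ARG3 was at 28.6 and 33.8 FPKM in cho2set2 cells and 26.4 and 24.5 FPKM in cho2 cells (0.23), and ARG4 at 121 and 157 FPKM in cho2set2 cells and 122 and 100.2 FPKM in cho2 cells (0.27). ARG8 was at 30.5 and 33.5 FPKM in cho2set2 cells and 23.0 and 22.1 FPKM in cho2 cells (0.45). ARG2 was at 19.4 and 27.9 FPKM in cho2set2 cells and 21.3 and 19.2 FPKM in cho2 cells (0.16). The values of ARG2 and ARG4 overlapped between the groups, and those of ARG3 and ARG8 did not. ARG7 and CPA1 had negative changes that were not called: ARG7 was at 84.6 and 81.6 FPKM in cho2set2 cells and 101.3 and 88.0 FPKM in cho2 cells (-0.25), and CPA1 at 106 and 91.5 FPKM in cho2set2 cells and 130 and 103 FPKM in cho2 cells (-0.30). Without cho2set2 replicate 1 none of these 6 genes was called either; ARG2 stood at 0.42, ARG3 at 0.36 and ARG4 at 0.45. Summed over the 7 synthesis genes, the level was 471 and 517 FPKM in cho2set2 cells, 462 and 399 FPKM in cho2 cells, 2397 and 2355 FPKM in opi1set2 cells, 662 and 582 FPKM in opi1 cells, 2780 and 2518 FPKM in set2 cells and 762 and 492 FPKM in WT cells.

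**Figure D3:**
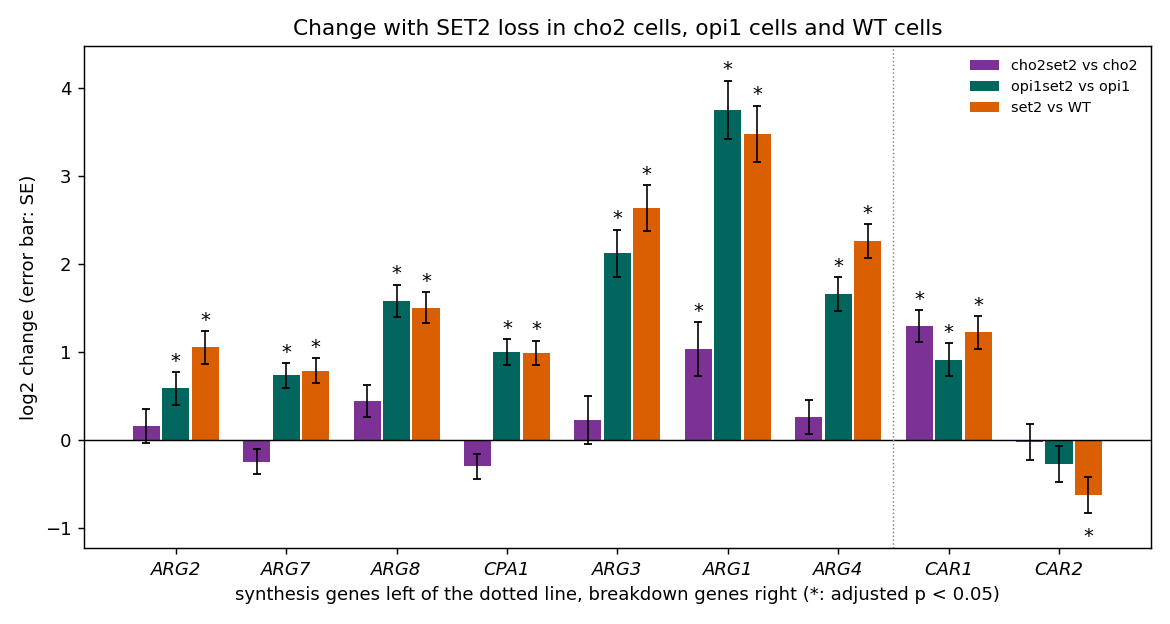
Log2 change on loss of SET2 for each of the 9 genes in cho2, opi1 and WT backgrounds, with error bars of 1 SE from the fit and 2 libraries in each group. For the 7 synthesis genes the cho2 background bars end between -0.30 and 1.04. At each gene that bar ends below those of the other backgrounds, which span 0.59 to 3.75 over the 7 genes. For CAR1 the 3 bars end between 0.91 and 1.30.

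Whether the change on loss of SET2 differed between backgrounds was tested directly. Here and below, a smaller change means a negative difference of the signed log2 changes, and a larger one a positive difference. A steeper fall thus counts as smaller. Taken in cho2 cells minus WT cells, it was smaller for 5 of the 9 genes, all of them synthesis genes, and larger for none, where 0.547% of all genes had a smaller change and 0.365% a larger one. The difference was -1.99 ± 0.27 for ARG4 (adjusted p = 0.00215, edgeR), -2.40 ± 0.37 for ARG3 (0.00595), -1.29 ± 0.20 for CPA1 (0.00595), -2.44 ± 0.43 for ARG1 (0.0119) and -1.04 ± 0.20 for ARG7 (0.0231). ARG8 (-1.06, adjusted p = 0.0673) and ARG2 (-0.89, adjusted p = 0.171) were not called. Without cho2set2 replicate 1, CPA1 (-1.39) and ARG4 (-1.81) passed. Without set2 replicate 1, ARG4 alone kept its call, at -1.94, and without cho2 replicate 2, CPA1, ARG3 and ARG4 did. ARG7 lost its call without WT replicate 2, set2 replicate 1, either cho2 library or either cho2set2 library, at -1.10 to -0.89. Without WT replicate 1, ARG8 (-1.30) and ARG2 (-1.15) were called too. With limma on log2(FPKM + 1) none of the 5 passed, with adjusted p between 0.0676 and 0.157.

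The same change was also compared between cho2 and opi1 cells, a test added after the values were seen, which uses no WT and no set2 library. It was smaller in cho2 cells for 6 of the 9 genes and larger for none, where 4.73% of all genes were smaller and 3.98% larger. ARG1 differed by -2.71 ± 0.43 (adjusted p = 0.00216, edgeR), ARG3 by -1.89 ± 0.38 (0.008) and CPA1 by -1.30 ± 0.20 (0.00184). ARG4 differed by -1.39 ± 0.26 (0.0058), ARG8 by -1.13 ± 0.26 (0.0154) and ARG7 by -0.98 ± 0.20 (0.008). ARG2 (-0.43 ± 0.27), CAR1 (0.38 ± 0.26) and CAR2 (0.25 ± 0.29) were not called. Without cho2set2 replicate 1, 5 of the 6 passed, and ARG8 did not; ARG8 was also lost without cho2 replicate 1 and without opi1 replicate 2, and with limma at a pseudocount of 0.1 ARG8 and ARG3 were.

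Between opi1 and WT cells the change on loss of SET2 was called different for 0 of the 9 genes by edgeR and 0 by DESeq2, where 2.84% of all genes had a larger change in opi1 cells and 2.63% a smaller one. At an unadjusted p below 0.05, 1 of the 9 differed. That gene was ARG4, with a difference of -0.60 ± 0.26 and an adjusted p of 0.176, while ARG1 differed by 0.27 ± 0.42. The SE leave room for differences of either sign at most of these genes.

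Read across genotypes without SET2, the synthesis genes of cho2set2 cells lay far below those of set2 cells. All 7 were lower, 1 of the breakdown genes was higher, and 4.01% of all genes rose and 3.88% fell. ARG1 changed by -3.35 ± 0.32 (adjusted p = 1.09e-05, edgeR), ARG3 by -3.12 ± 0.27 (4.48e-06) and ARG4 by -2.28 ± 0.19. CPA1 changed by -1.89 ± 0.14, ARG8 by -1.43 ± 0.17, ARG7 by -1.40 ± 0.14 and ARG2 by -1.04 ± 0.18. The median was -1.89 over the 7 genes and 0.01 over all genes. Without cho2set2 replicate 1, ARG1 changed by -3.25 and ARG3 by -3.00, and ARG2 was no longer called (-0.79, adjusted p = 0.0529); the other 6 were. These set2 libraries are those of the comparison with WT, so the 2 sets of values are not independent of each other.

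On loss of OPI1 from set2 cells, 3 of the 9 genes fell and 1 rose, where 13.5% of all genes rose and 12.3% fell. At an unadjusted p below 0.05 (edgeR), 8 of the 9 differed, and 8 also did in cho2set2 relative to set2 cells. The cho2set2 and opi1set2 cells were not compared with each other directly. In opi1set2 cells relative to set2 cells ARG3 changed by -1.47, CPA1 by -1.15 and ARG8 by -0.80. ARG1, at 575 and 563 FPKM in opi1set2 cells and 984 and 851 FPKM in set2 cells, changed by -0.68 ± 0.29 and missed the threshold (adjusted p = 0.095). ARG4 was the one that rose (0.81 ± 0.19, adjusted p = 0.00565).

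In cells that keep SET2, loss of CHO2 alone gave 1 call among the 9 genes. At an unadjusted p below 0.05 (edgeR), 4 of the 9 differed, against 5 in opi1 relative to WT cells. The cho2 and opi1 cells were not compared with each other directly. Only CPA1 was called, lower in cho2 than in WT cells (-0.60 ± 0.14, adjusted p = 0.0419, edgeR), and none of the 9 rose; 0.243% of all genes rose and 1.47% fell. CPA1 lost the call without either cho2 library and without WT replicate 1. ARG1 changed by -0.91 ± 0.30 (adjusted p = 0.218) and ARG3 by -0.72 ± 0.27 (0.306); without WT replicate 2 both were called, at -1.47 and -1.19, and without WT replicate 1 they stood at -0.017 and -0.054. The synthesis median was -0.37, against 0.00 over all genes.

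Loss of OPI1 alone gave calls in both directions, of which those of CPA1 and ARG4 held whichever library was left out. In opi1 relative to WT cells 4 of the 9 genes fell and 1 rose, where 8.77% of all genes fell and 8.94% rose. CPA1 was lowest in opi1 cells of all 6 genotypes and changed by -1.16 ± 0.14 (adjusted p = 6.41e-05, edgeR). ARG8 changed by -0.88 ± 0.19 (0.00455), ARG3 by -0.96 ± 0.27 (0.0243) and ARG1 by -0.96 ± 0.31 (0.0433). The calls of ARG8, ARG3 and ARG1 were lost without WT replicate 1, where ARG1 changed by -0.06, ARG3 by -0.29 (adjusted p = 0.470) and ARG8 by -0.65 (0.0753). ARG1 and ARG3 also lost the call without either opi1 library and with limma, ARG1 with DESeq2 and without cho2set2 replicate 1, and ARG8 without opi1 replicate 2 (0.0743). Across the libraries left out, 2 to 5 genes were called, and CPA1 and ARG4 were called each time.

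ARG4 was the gene that rose in opi1 cells, at 370 and 306 FPKM, against 173 and 108 FPKM in WT cells (1.41 ± 0.19, adjusted p = 0.000132). The groups did not overlap. Its neighbours on chromosome VIII were looked at after this value was seen. The adjacent genes YSC83 (0.36, adjusted p = 0.0778) and DED81 (-0.33, 0.119) were not called; of the next ones out, YSC84 fell (-0.39, adjusted p = 0.0350) and YHR020W was not called (-0.23, 0.527). The median over 304 genes of that chromosome was -0.06.

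**Figure D4:**
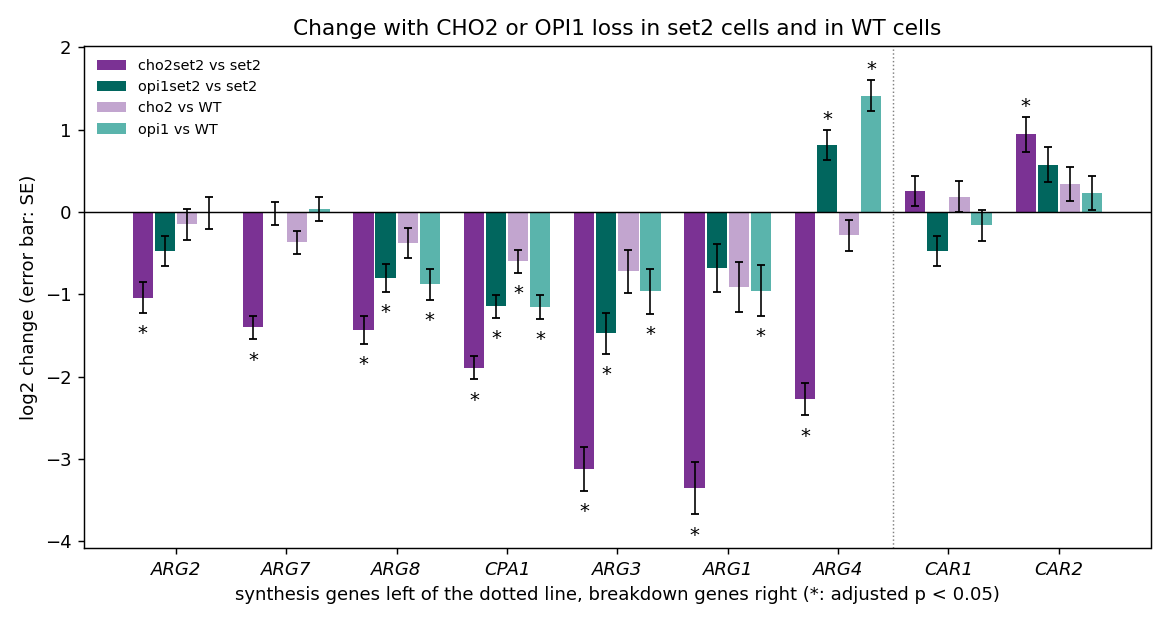
Log2 change on loss of CHO2 and on loss of OPI1 for each of the 9 genes, in set2 cells and in WT cells, with error bars of 1 SE from the fit and 2 libraries in each group. Loss of CHO2 from set2 cells changes the 7 synthesis genes by -3.35 to -1.04, and ARG4 is the gene that rises on loss of OPI1 in both, by 0.81 and 1.41.

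The 2 breakdown genes differed from each other in their calls. CAR1, the arginase that splits arginine into ornithine and urea, rose on loss of SET2 in every background. It differed, at 144 and 146 FPKM in cho2set2 cells and 46.6 and 66.5 FPKM in cho2 cells, by 1.30 ± 0.18 (adjusted p = 0.00019, edgeR), and by 1.32 without cho2set2 replicate 1 (adjusted p = 0.00108). It was at 87.0 and 93.8 FPKM in opi1set2 cells and 38.8 and 44.7 FPKM in opi1 cells (0.91 ± 0.19, adjusted p = 0.00123). It was at 139 and 113 FPKM in set2 cells and 58.6 and 45.2 FPKM in WT cells (1.22 ± 0.18, adjusted p = 0.000179). In none of the 3 did the groups overlap. The change on loss of SET2 in cho2 cells minus that in WT cells was 0.07 and was not called, and cho2set2 cells were at 0.26 ± 0.18 relative to set2 cells (adjusted p = 0.435).

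CAR2, the ornithine aminotransferase that follows arginase, was called in 2 comparisons. It was lower in set2 than in WT cells, at 52.8 and 37.9 FPKM in set2 cells and 61.3 and 72.1 FPKM in WT cells (-0.62 ± 0.21, adjusted p = 0.0327, edgeR), a call lost without WT replicate 2 (-0.47), without set2 replicate 2 (-0.38) and with limma. It was higher in cho2set2 than in set2 cells, at 74.4 and 93.8 FPKM in cho2set2 cells (0.94 ± 0.21, adjusted p = 0.0111), and at 1.11 without cho2set2 replicate 1. That call was lost without set2 replicate 2 (0.70), without cho2set2 replicate 2 (0.76) and with limma (adjusted p = 0.0785 and 0.0952). On loss of SET2 it changed by -0.02 in cho2 cells and by -0.27 ± 0.21 in opi1 cells (adjusted p = 0.311), neither called. Its groups overlapped in most neighbouring pairs when the genotypes are put in order of level.

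Ordered by mean level, 6 of the 7 synthesis genes were highest in set2 cells, and ARG4 in opi1set2 cells. The next level down was opi1set2 for ARG1, ARG2, ARG3, ARG7 and ARG8, and the libraries of set2 and opi1set2 overlapped for ARG7 alone. The lowest mean was in opi1 cells for ARG1, ARG3, ARG8 and CPA1, in cho2 cells for ARG2 and ARG4, and in cho2set2 cells for ARG7. At ARG1 the WT libraries overlapped those of both neighbours in the order, cho2set2 and cho2, and the cho2 libraries those of opi1, while the cho2set2 libraries lay above all cho2 and opi1 libraries. CAR1 was highest in cho2set2 cells and CAR2 was lowest in set2 cells.

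A list of 19 other genes of arginine metabolism gave the surroundings of these 9. On loss of SET2, 5 of the 19 rose and 0 fell in cho2 cells, 9 rose and 6 fell in opi1 cells, and 7 rose and 2 fell in WT cells. Over all genes, 11.3% rose and 5.58% fell in cho2 cells, 23.5% and 20.8% in opi1 cells, and 18.5% and 15.9% in WT cells. ARG5,6, which encodes acetylglutamate kinase and reductase, rose in opi1 cells (1.49) and in WT cells (1.59 ± 0.17, adjusted p = 1.04e-05, edgeR). It averaged 54.6 FPKM in cho2set2 cells and 42.6 FPKM in cho2 cells, and was not called there. ARG5,6 overlaps YER068C-A.

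The change on loss of SET2 in cho2 cells minus that in WT cells was smaller for 2 of the 19, ARG5,6 (-1.29) and ORT1 (-1.08), the mitochondrial ornithine carrier, and larger for none (0.547% smaller and 0.365% larger over all genes). Neither was called with limma, or without WT replicate 2, set2 replicate 1, cho2 replicate 1 or cho2set2 replicate 1. Against opi1 cells it was smaller for 3: ARG5,6 (-1.19), ORT1 (-0.92) and URA2 (-1.15), which makes carbamoyl phosphate for pyrimidines (4.73% smaller and 3.98% larger over all genes). The same 3 were called without cho2set2 replicate 1. Between opi1 and WT cells it was called for 0 of the 19 by edgeR and for 2 by DESeq2, URA2 and PUT3 (2.84% larger and 2.63% smaller over all genes by edgeR).

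The urea genes DUR1,2 and DUR3 rose on loss of SET2 in every background, while the 3 uptake genes of the list went different ways. DUR1,2, the urea amidolyase that degrades the urea arginase makes, averaged 30.5 FPKM in cho2set2 cells and 9.79 FPKM in cho2 cells (1.58 ± 0.15), 39.0 FPKM in opi1set2 cells and 9.12 FPKM in opi1 cells, and 39.5 FPKM in set2 cells and 10.9 FPKM in WT cells (1.79 ± 0.15), called in each. CAN1, an arginine permease, averaged 90.4 FPKM in cho2set2 cells and 37.8 FPKM in cho2 cells (1.20 ± 0.19), and rose by 1.28 ± 0.19 in set2 relative to WT cells. ALP1 and GAP1, the other uptake genes, had negative changes: in opi1set2 relative to opi1 cells both fell (-1.79 and -0.91), and in cho2set2 relative to cho2 cells neither was called (-0.51 and -0.46). The urea transporter gene DUR3 rose by 0.79 in cho2set2 relative to cho2 cells, by 0.97 in opi1set2 relative to opi1 cells and by 1.08 ± 0.16 in set2 relative to WT cells. Without cho2set2 replicate 1 the same 5 genes of the list rose in cho2 cells, DUR1,2 by 1.79 and CAN1 by 1.42.

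Loss of a lipid gene alone moved 2 of the 19 in cho2 cells and 4 in opi1 cells. ALP1, another basic amino acid permease, rose in cho2 (2.11 ± 0.31) and opi1 (1.58 ± 0.31) relative to WT cells. URA2 changed by -1.03 ± 0.14 in opi1 relative to WT cells. In all, 2 rose and 0 fell in cho2 cells, where 0.243% of all genes rose and 1.47% fell, and 2 rose and 2 fell in opi1 cells, where 8.94% rose and 8.77% fell. The cho2 calls were ALP1 and GAP1; limma called ALP1 alone with a pseudocount of 1 and neither with 0.1, and GAP1 was lost without WT replicate 2 and without cho2 replicate 2. Relative to set2 cells, 2 rose and 3 fell in cho2set2 cells, where ALP1 changed by 2.46, ARG5,6 by -1.98 and ORT1 by -1.44 (4.01% of all genes rose and 3.88% fell). These 3 were called without cho2set2 replicate 1 too, at 2.52, -1.77 and -1.40, and made up the 1 rise and 2 falls called then. In opi1set2 relative to set2 cells 2 rose and 3 fell, none by 1 or more on the log2 scale (13.5% of all genes rose and 12.3% fell); 0 rose and 1 fell without opi1set2 replicate 2. GCN4 mRNA does not report the Gcn4 protein made from it. The mRNA was called in opi1set2 relative to opi1 cells (0.42 ± 0.16, adjusted p = 0.0409, edgeR) and to set2 cells (0.65), and in no other comparison. The call against opi1 cells was lost with median-of-ratios scaling and without cho2set2 replicate 1, opi1 replicate 1 or opi1set2 replicate 2. That against set2 cells was lost without set2 replicate 2 and without opi1set2 replicate 2.

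Across the 12 libraries, which are 6 genotypes of 2 and so not independent points, the log2 levels of the synthesis genes went together, with a Pearson r of 0.43 to 0.96 over their 21 pairs (median 0.83); the lowest was that of ARG4 and CPA1. CAR1 had an r of 0.12 to 0.67 with the synthesis genes and CAR2 of -0.81 to -0.52. Of 5974 other genes with a mean of at least 5 FPKM, those most like ARG1 included SDT1 (r = 0.985), ARO2 (0.980), GGC1 (0.980) and YJR111C (0.975). SDT1 encodes a nucleotidase, ARO2 chorismate synthase of aromatic amino acid synthesis and GGC1 a mitochondrial carrier of guanine nucleotides. Those most like CAR1 were YPL044C (0.976), STE20 (0.966), MEP3 (0.961), IMD2 (0.960) and NAT1 (0.958); YPL044C and STE20 overlap other genes. MEP3 encodes an ammonium permease and STE20 a protein kinase of the mating pathway. These lists are a description of these libraries.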

How the data were processed

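RNA from 12 libraries had been extracted with a MasterPure yeast kit, per the labels' protocols. Per the submitters' processing notes, cutadapt 1.9.1, HISAT2 2.0.1 and HTSeq 0.6.1 were used with build sacCer3; their roles, settings and strand setting are not given in the sources used here. The authors deposited whole-number counts per gene and library, not normalised, and FPKM, which matched a recomputation from counts, exonic gene size and library totals within 0.005. Exonic gene size was deposited in bases.

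The 6 genotypes on the labels served as groups. The fit took the 6583 genes that reached an FPKM of 1 in 2 or more libraries, and 6580 were counted after SET2, CHO2 and OPI1 were left out. The quasi-likelihood test of edgeR 4.0.16 was run on the counts with TMM factors of 0.897 to 1.077, 1 mean per genotype over all 12 libraries, a common biological coefficient of variation of 0.12 and 6 residual degrees of freedom, 2-sided, adjusted by Benjamini-Hochberg over all genes tested, with a threshold of 0.05. There were 7 comparisons of groups and 3 differences of changes, 1 of them added later. The SE is the size of the log2 change over the square root of F. With 2 libraries against 2, an exact permutation test of 1 gene cannot go below p = 0.333, and edgeR instead uses a spread shared among genes and groups. The script was tested on simulated data.

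The members and lists were chosen with earlier results of these data known. All 9 members are named throughout; of the 19 other pathway genes, those called with an absolute log2 change of at least 1 are named, and genes among the 5 with the highest r to ARG1 and to CAR1, over log2(CPM + 1). One gene that these rules would name is not reported here. Values of ORT1, GCN4, GAP1, ALP1, DUR3, URA2, ARG5,6 and CAN1 below that size, the naming of PUT3, and the neighbours of ARG4, stand outside this rule. They were chosen after they were seen. Promoters came from R64, in which 6036 of 6048 matched IDs, all 9 members among them, have the deposited coordinates. Alternatives were DESeq2 1.42.0, median-of-ratios scaling, limma 3.58.1 on log2(FPKM + 1) and log2(FPKM + 0.1), no filter, a replicate block and each library left out; for the other pathway genes these were added after seeing the data. R 4.3.3 and Python 3.11.15 were used.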

Additional observations from a re-analysis of the deposited data

Results flagged for a closer look

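By edgeR, the change on loss of SET2 differed between backgrounds in a test of the difference itself for these genes. Taken in cho2 cells minus WT cells, it was -2.44 for ARG1, -2.40 for ARG3, -1.99 for ARG4, -1.29 for CPA1 and -1.04 for ARG7. Taken in cho2 cells minus opi1 cells, a test added after the values were seen, it was -2.71 for ARG1, -1.89 for ARG3, -1.39 for ARG4, -1.30 for CPA1, -1.13 for ARG8 and -0.98 for ARG7. Both differences use the same cho2set2 and cho2 libraries, so they are not independent of each other. The calls in cho2 minus WT cells were all lost with limma. Calls among them were also lost without WT replicate 2, set2 replicate 1, either cho2 library or either cho2set2 library, as given above. SET2 reads were found in replicate 1 of the cho2set2 libraries (50 counts, against 0 in replicate 2). At ARG1 that library stood at 80.9 FPKM and its partner at 91.9 FPKM. It was also the lower at ARG2 (19.4 against 27.9 FPKM), ARG3 (28.6 against 33.8), ARG4 (121 against 157) and ARG8 (30.5 against 33.5). At ARG7 (84.6 against 81.6 FPKM) and CPA1 (106 against 91.5) it was the higher. Whether the SET2 reads bear on these gaps was not tested.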

How the results depend on the processing

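The number of the 9 genes called was within 1.5 times the reported number under every alternative run for set2 against WT, opi1set2 against opi1, cho2set2 against set2, opi1set2 against set2 and the difference between cho2 and opi1 cells (9, 8, 8, 4 and 6 genes; 4 to 6 for the last). For cho2 against WT it was 1, 0 with limma at either pseudocount, and 0 to 3 with a library left out. For opi1 against WT it was 5, 3 and 3 with limma, and 2 to 5 with a library left out. For cho2set2 against cho2 it was 2, 1 with DESeq2, 1 and 1 with limma, and 1 whichever library was left out. For the difference between cho2 and WT cells it was 5, 0 and 0 with limma, and 1 to 7 with a library left out; for that between opi1 and WT cells it was 0, and 0 to 1 with a library left out (ARG3 at -1.18 without WT replicate 1, ARG1 at 0.84 without WT replicate 2). The cause of these shifts was not tested.

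Of 1062 recomputed log2 values of single genes, 951 kept direction and side of the threshold, 65 lost the call, 11 gained one and 35 changed sign. Those that changed sign were of uncalled values: ARG7 in opi1 against WT (-0.10 and -0.10 with limma), CAR2 in cho2set2 against cho2 (0.0290 and 0.0292 with limma), and, for opi1 against WT cells in the change on loss of SET2, CPA1 (-0.00066 with DESeq2, -0.000696 with median-of-ratios scaling) and ARG7 (0.0684 and 0.0689 with limma). With a library left out, signs changed for ARG2 (-0.39 to 0.11), ARG4 (-0.57 to 0.0525) and CAR1 (-0.14 to 0.44) in cho2 against WT, for ARG2 (-0.25 to 0.24), ARG7 (-0.12 to 0.19) and CAR2 (-0.13 to 0.50) in opi1 against WT, for ARG2 (-0.13 to 0.42) and CAR2 (-0.21 to 0.15) in cho2set2 against cho2, for CAR2 (-0.55 to 0.0857) in opi1set2 against opi1 and for ARG7 (-0.17 to 0.12) in opi1set2 against set2. In the differences of changes they did so for CAR1 between cho2 and WT cells (-0.19 to 0.39), for CPA1 (-0.13 to 0.16), ARG7 (-0.21 to 0.11), ARG8 (-0.16 to 0.29) and ARG1 (-0.62 to 0.84) between opi1 and WT cells, and for CAR2 between cho2 and opi1 cells (-0.11 to 0.52).

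Replicate numbers did not pair the libraries across all genotypes. Same-numbered libraries deviated from their group means with a correlation of -0.331 to 0.329 over 15 genotype pairs (median 0.009), and 3 pairs were above 0.1. Whether some of these libraries shared a batch was not tested. With the replicate block, ARG1 in opi1 against WT had an adjusted p of 0.0555 (edgeR), and no other member changed its call.

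Over all genes, the number called was 113 for cho2 against WT (58 to 183 across the other settings), 519 for cho2set2 against set2 (282 to 684), 60 for the difference between cho2 and WT cells (8 to 133), 360 for that between opi1 and WT cells (61 to 629) and 573 for that between cho2 and opi1 cells (224 to 760). With a library left out the lowest numbers were 1272 of 2263 for set2 against WT, 64 for cho2 against WT, 448 of 1165 for opi1 against WT, 492 of 1109 for cho2set2 against cho2, 190 for cho2set2 against set2, 761 of 1698 for opi1set2 against set2, 9, 44 and 192 for the 3 differences, whose highest were 107, 1144 and 1030. FPKM is not TMM-scaled, and with limma at a pseudocount of 1 the median of all genes moved away from 0 in several comparisons. It was -0.14 in opi1 against WT and 0.19 in opi1set2 against opi1. For the difference between opi1 and WT cells it was 0.15, and for that between cho2 and opi1 cells -0.12 with limma. The split of calls also moved with limma: 289 higher and 712 lower (588 and 577 by edgeR) in opi1 against WT, 2010 and 735 (1546 and 1368) in opi1set2 against opi1, 684 and 180 (742 and 367) in cho2set2 against cho2, and 98 and 208 (264 and 255) in cho2set2 against set2.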
